A study of Populus davidiana with 6 samples.

Results

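In leaves of the aspen Populus davidiana, 211 annotated genes that stood under 20 FPKM in control plants were at least doubled in plants that had been left in open air for about 10 min. FPKM is the fragment count divided by transcript length and by the size of the library, so it compares genes per length. The 211 were picked from the 40537 gene models of the deposited tables by their values. A gene had to have an annotated transcript and a span of 500 bp or more, which 32745 did. Its highest control value had to be at least 1 FPKM and its control mean under 20 FPKM, which left 13146 genes. Its lowest air-dried value then had to be at least 2 times its highest control value, which 211 genes met. Because the air-dried and control values chose these genes, their levels and folds are given below as a description, with no test.

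The air-dried group held 3 leaf samples of cultivar Seogwang15, labelled as drought-sensitive, and the control group held 3 leaf samples of the same cultivar. The plants were seedlings of about 6 weeks, propagated from internodes in sterile culture on sucrose medium with naphthalene acetic acid, an auxin, and both groups shared this background. Air-dried plants were also pulled from the medium and rinsed with water before drying, and the labels do not say whether control plants were, so the effects of pulling, rinsing and drying cannot be told apart. The labels also leave unsaid whether the samples of a group are separate plants.

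A leaf that loses water faster than it takes it up loses turgor, and plant cells answer with calcium and reactive oxygen signals, closure of the stomata and, more slowly, synthesis of abscisic acid. Uprooting and handling also act on touch and wound signalling. Transcripts that answer within minutes are often kept low at rest, and in yeast, Arabidopsis and mouse, genes with rapidly changing transcripts are known to be poor in introns. The gene name column of the tables was empty (0 names) and no annotation of the identifiers was used here, so the genes below are given by position and structure. No role can be attached to any of them, and the leaf label could not be checked against marker genes. Coordinates are those of the deposited tables, whose genome build is not given in the sources used here.

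Both replicate 1 libraries stood apart. Transcripts above 10000 FPKM numbered 93 in air-dried 1 and 191 in control 1, and 12 to 18 in the other 4 libraries. In the 211 genes, air-dried 1 deviated from the mean of air-dried 2 and 3 by a median of 0.01 on the log2(FPKM + 1) scale, with quartiles of -0.14 and 0.20. Control 1 deviated from the mean of controls 2 and 3 by a median of -0.14, with quartiles of -0.39 and 0.15. Control 1 therefore lay somewhat low in these genes and was the lowest of the 3 controls in 109 of the 211. Without both replicate 1 libraries the same limits picked 293 genes, 202 of them among the 211. Limits that have to be met in fewer libraries are easier to meet, so the 293 and the 211 are not measured alike.

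The 211 genes stood in the upper part of the range of annotated genes in air-dried leaf and near its middle in control leaf. Their median level was 16.1, 16.8 and 16.8 FPKM in air-dried 1, 2 and 3, against 2.97, 3.48 and 3.46 FPKM in controls 1, 2 and 3. Ranked among the 32745 annotated genes of the same library, the median gene lay at percentile 77.0, 77.7 and 77.5 in the air-dried libraries, against 52.3, 54.2 and 53.9 in the controls. The summed level of all 211 was 5906, 5992 and 5951 FPKM in air-dried 1, 2 and 3, against 973, 1066 and 1057 FPKM in controls 1, 2 and 3. The air-dried sums lay close together, and control 1 had a lower sum than controls 2 and 3. In a bulk sample, fewer cells of a type and less RNA per cell cannot be told apart.

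**Figure D1:**
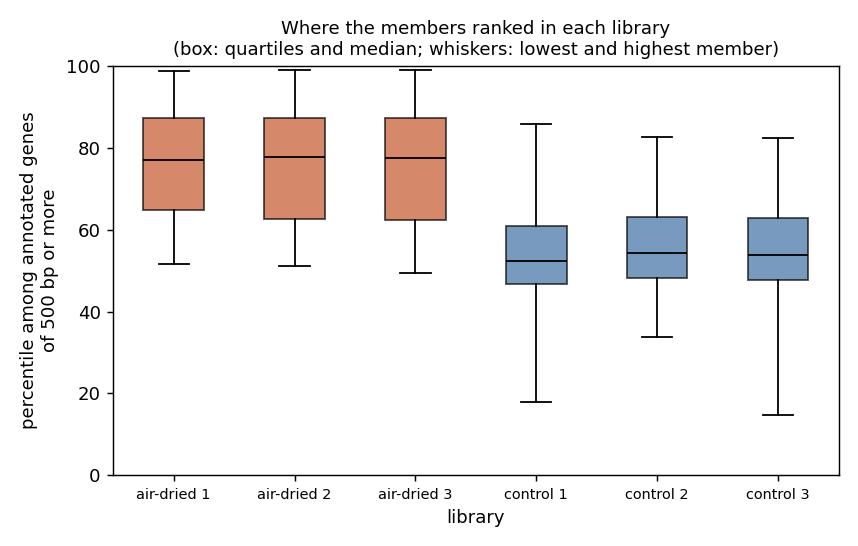
Percentile of the 211 genes among the 32745 annotated genes spanning 500 bp or more, in each of the 3 air-dried and 3 control libraries; boxes give quartiles and median, whiskers the lowest and highest gene. The medians lie at 77.0 to 77.7 in the air-dried libraries and at 52.3 to 54.2 in the controls.

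The ratio of the lowest air-dried to the highest control value ran from 2.01 to 49.6, with a median of 2.83 and quartiles of 2.32 and 4.45. Most genes lay near the lower end: 113 of the 211 (53.6%) had a ratio of 2 to 3, 52 one of 3 to 5, 28 one of 5 to 10 and 18 (8.53%) one of 10 or more. By group means, the air-dried level was a median of 4.12 times the control level and at most 59.5 times. The 18 genes at a ratio of 10 or more had a median span of 1123.5 bp and lay on 11 chromosomes. Their median control mean was 2.88 FPKM, somewhat below the 3.62 FPKM of the genes at 2 to 3. Their median air-dried mean was 71.5 FPKM, compared with 12.4 FPKM in the genes at 2 to 3. Across the 211 genes, the log2 ratio of the group means was weakly lower at a higher control mean (Spearman's rho = -0.29, n = 211 genes of the same 6 libraries, and the control mean enters both measures).

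**Figure D2:**
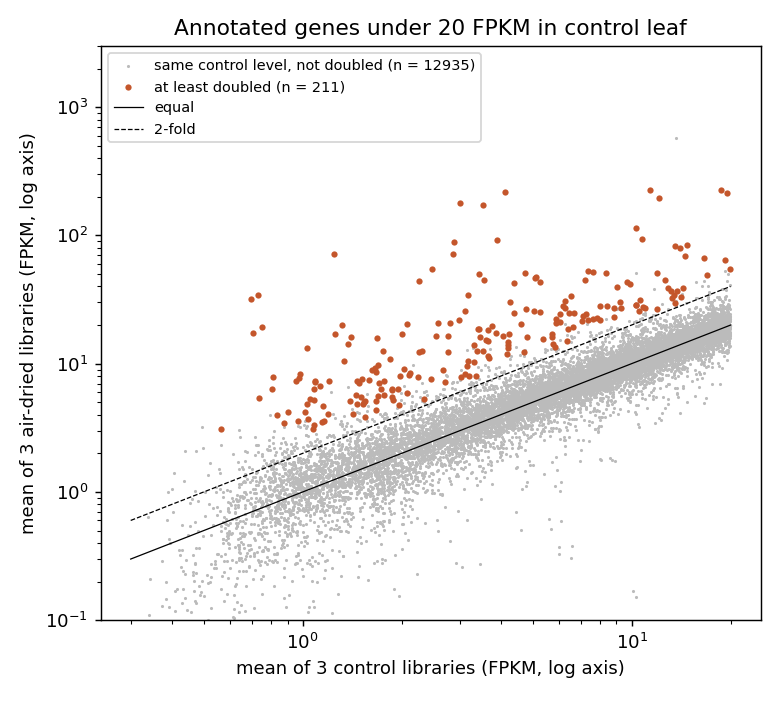
Mean of the 3 air-dried libraries against mean of the 3 control libraries, both in FPKM on log axes. Shown are the 211 genes and the 12935 other annotated genes at the same control level. The 12935 missed the ratio of lowest air-dried to highest control value, and 48 of them lie below the axis at 0.1 FPKM. The 211 genes lie above the dashed 2-fold line over the whole range of control means from 0.565 to 19.998 FPKM. Other genes can lie above it too: in the 3 just outside the ratio limit the group means were 2.53, 2.37 and 2.57 times apart.

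At the limit itself there was no gap. Between a ratio of 2 and 2.2 lay 36 genes, and 64 genes at the same control level lay between 1.8 and 2. The 3 genes just inside had ratios of 2.006, 2.010 and 2.011, and the 3 just outside 1.994, 1.989 and 1.989. At the lower level limit, the highest control value of the nearest 3 of the 211 genes was 1.07, 1.08 and 1.11 FPKM. That of the nearest 3 genes outside that met the same ratio was 0.988, 0.967 and 0.922 FPKM. At the upper level limit, only genes that met the same ratio were considered on both sides. The control means of the nearest 3 of these were 19.998, 19.5 and 19.3 FPKM inside and 20.2, 20.8 and 21.7 FPKM outside.

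By these limits doubling was uncommon at this level and mostly one way. Every air-dried value lay above every control value in 19.2% of the 13146 genes, and every air-dried value lay below every control value in 10.7%. The lowest air-dried value was at least 2 times the highest control value in 211 (1.61%). With the groups exchanged, so that the highest air-dried value was at least 1 FPKM, the air-dried mean under 20 FPKM and the lowest control value at least 2 times the highest air-dried value, 20 of 13017 genes qualified (0.154%). The exchanged limits use the lowest control and the first limits the highest. Control 1 was the most scattered control in the other genes at this level, so the 2 shares are not measured quite alike. Among annotated genes with a control mean of 20 FPKM or more, the same ratio of 2 was met by 33 of 6087 (0.542%). Those 33 had a median ratio of 2.43 and at most 10.9, compared with 2.83 and 49.6 in the 211. The share that doubled was highest in genes with a control mean of 1 to 2 FPKM (57 of 1608, 3.54%). It was 2.17% at 2 to 5 FPKM, 1.24% at 5 to 10 FPKM and 0.737% at 10 to 20 FPKM, and 1.71% (15 of 875) under 1 FPKM. Genes with a mean under 1 FPKM entered only where a control still reached 1 FPKM, so their share is not measured alike. These shares describe how the genes are spread and were not tested.

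In the fit across all 22818 tested genes (limma on log2(FPKM + 1)), 1231 genes were called higher in the air-dried samples at a Benjamini-Hochberg adjusted p under 0.05, which is 5.39%. All 211 genes passed the filter on low values and 202 of them were called. The choice of the genes used the same contrast, so nothing is read from that count, and 616 of the 12365 tested genes at the same control level were called (4.98%). The median change of the 211 was 1.74 on the log2(FPKM + 1) scale, in which changes of low genes come out too small, against 0.03 over all tested genes. The other 9 genes had control values that lay far apart or low levels. A gene of 729 bp on chromosome 13 (minus strand, 11130167 to 11130895) had 17.3, 18.6 and 19.9 FPKM in air-dried 1, 2 and 3, against 0.173, 5.13 and 5.03 FPKM in controls 1, 2 and 3. Control 1 alone was low there. A gene of 902 bp on chromosome 15 (plus strand, 10709895 to 10710796) likewise had 25.2, 17.8 and 19.6 FPKM after drying, against 0.122, 3.48 and 4.16 FPKM in the controls.

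The largest ratio belonged to POPTR_0014s01760.r1, 1062 bp on chromosome 14 (plus strand, 1643749 to 1644810). It had 217, 219 and 221 FPKM in air-dried 1, 2 and 3, against 3.70, 4.33 and 4.38 FPKM in controls 1, 2 and 3. Its annotated transcript held nearly all of this in every library, and the transcript added by the assembly stayed near 0. The 3 libraries of each group lay close together, with the lowest air-dried value 49.6 times the highest control value.

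POPTR_0005s26390, a model of 1820 bp with 1 transcript on chromosome 5 (minus strand, 24433589 to 24435408), came next. It had 65.7, 73.8 and 76.1 FPKM in the air-dried libraries, against 1.36, 1.40 and 0.961 FPKM in the controls. Its air-dried mean was 71.9 ± 5.49 FPKM and its control mean 1.24 ± 0.243 FPKM (SD, n = 3 each), 57.9 times apart.

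A pair of genes of similar size reached higher levels. The gene of 1167 bp on chromosome 9 (plus strand, 12284978 to 12286144) had 150, 195 and 191 FPKM in the air-dried libraries, against 3.28, 2.99 and 2.75 FPKM in the controls. Its group means were 59.5 times apart, the most among the 211. The gene of 1287 bp on chromosome 4 (plus strand, 20365509 to 20366795) had 153, 183 and 180 FPKM, against 2.62, 3.98 and 4.03 FPKM in the controls. In both, air-dried 1 was the lowest of the air-dried libraries and still far above every control.

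On chromosome 18, a gene of 1855 bp on the minus strand from 8591115 to 8592969 had 32.5, 35.0 and 35.8 FPKM in the air-dried libraries, against 1.07, 0.572 and 0.552 FPKM in the controls. Its highest control value lay just above the limit of 1 FPKM, and only in control 1. A second gene of that chromosome, 597 bp on the plus strand from 9245946 to 9246542, had 30.1, 33.3 and 33.2 FPKM, against 1.94 and 0.149 FPKM in controls 1 and 2 and a listed 0 in control 3. An exact 0 can be a failed estimate in these tables. Both genes thus met the limit of 1 FPKM in control 1 alone.

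Chromosome 16 also held 2 of the 10 genes with the largest ratios. The one of 546 bp on the plus strand from 206842 to 207387 had 98.8, 87.6 and 80.5 FPKM in the air-dried libraries, against 1.59, 4.05 and 3.04 FPKM in the controls. The one of 1080 bp on the plus strand from 5036503 to 5037582 had 95.8, 90.6 and 88.3 FPKM, against 2.17, 4.23 and 5.29 FPKM in the controls. The air-dried values lay closer together in the gene of 1080 bp (SD 3.85 FPKM) than in that of 546 bp (SD 9.25 FPKM). Control 1 was the lowest of the controls in both.

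The remaining 2 of the 10 were similar in level. A gene of 1691 bp on chromosome 2 (plus strand, 8930778 to 8932468) had 54.0, 56.4 and 52.7 FPKM in the air-dried libraries, against 1.76, 2.85 and 2.82 FPKM in the controls. A gene of 961 bp on chromosome 1 (minus strand, 30161310 to 30162270) had 64.8, 78.5 and 70.3 FPKM, against 1.75, 3.88 and 2.94 FPKM in the controls. Of the 10 genes, 9 had a single, annotated transcript.

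**Figure D3:**
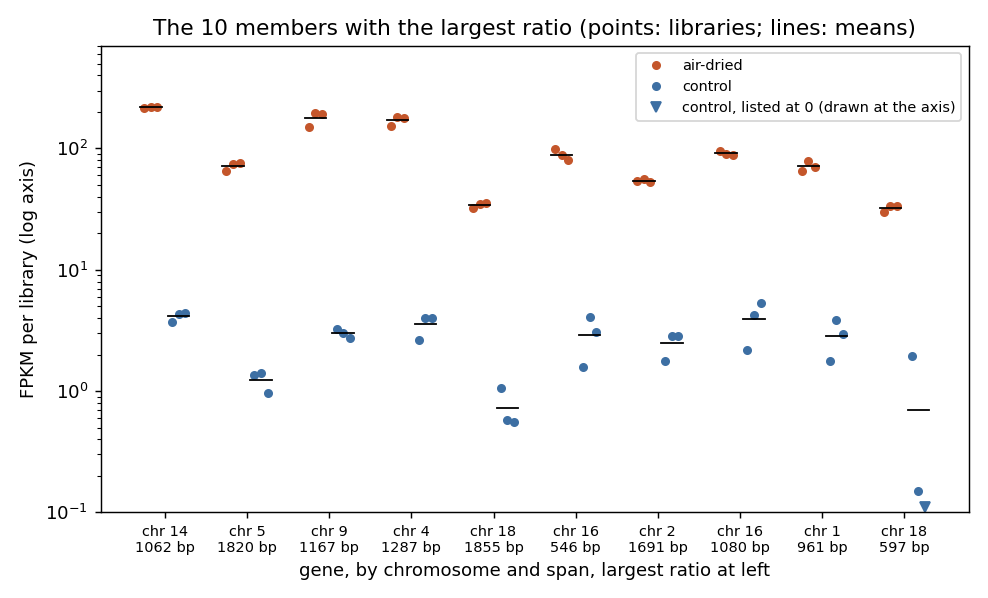
FPKM in each library, on a log axis, of the 10 genes with the largest ratio of lowest air-dried to highest control value; points are the 3 air-dried and 3 control libraries, lines their means, and the triangle a control listed at 0. The lowest air-dried point is at least 15.5 times the highest control point in each gene, and the control points of the last gene at right (chromosome 18, 597 bp) are the most scattered.

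By absolute level, a few genes made up much of the summed difference. The 10 genes with the largest difference between group means held 33.3% of the summed difference of 4917 FPKM, and 50 genes held 67.1%. All 3 air-dried libraries were at 20 FPKM or more in 82 of the 211 genes (38.9%), at 50 or more in 21 and at 100 or more in 8. Of the 12935 other genes at the same control level, 278 (2.15%) had all 3 air-dried libraries at 20 FPKM or more and 0 at 50 or more. The choice of the 211 used these values, so the 2 shares are not compared further.

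The highest air-dried mean was 226 FPKM, in a gene of 3246 bp on chromosome 8 (plus strand, 4193238 to 4196483). It had 205, 235 and 238 FPKM in the air-dried libraries, against 18.3, 19.3 and 18.5 FPKM in the controls. The controls agreed within 1 FPKM there. A gene of 1028 bp on chromosome 7 (minus strand, 602330 to 603357) had 182, 253 and 239 FPKM, against 13.0, 10.1 and 11.1 FPKM in the controls.

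Chromosome 1 held another pair of this size. The gene of 1300 bp on the plus strand from 12224379 to 12225678 had 180, 206 and 201 FPKM in the air-dried libraries, against 10.6, 12.7 and 13.1 FPKM in the controls. The gene of 796 bp on the plus strand from 42026076 to 42026871 had 234, 212 and 202 FPKM, against 27.7, 15.7 and 14.96 FPKM in the controls. In the second of these control 1 stood above the other controls, which brought its control mean to 19.5 FPKM, close to the limit of 20.

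The spread between replicates differed between the groups. The median coefficient of variation was 8.68% over the 3 air-dried values and 20.2% over the 3 control values of the 211 genes. In the other 12935 genes at the same control level it was 11.2% in the air-dried and 15.4% in the control libraries. The choice of the 211 used the lowest air-dried and highest control values, so their spread is not free of that choice. The control levels of the 211 were the lower ones, and the tables give no counts with which to set the spread against depth. In 13 of the 211 genes a replicate 1 value lay more than 1 log2(FPKM + 1) from the mean of replicates 2 and 3 of its group. The largest departures were those of the genes on chromosomes 13 and 15 given above and of a gene of 692 bp on chromosome 6 (plus strand, 25400557 to 25401248). The last had 62.2, 48.0 and 39.1 FPKM in the air-dried libraries, against 0.413, 4.31 and 5.57 FPKM in the controls. In all 3 the departing library was control 1, and it was low. In the replicate 1 pair taken alone, air-dried 1 was at least 2 times control 1 in each of the 209 genes in which control 1 was above 0, as the choice of the genes requires.

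Beyond the minimum span and the need for an annotated transcript, no limit on the structure of the gene models was used to choose the genes. The values that chose them were sums over the transcripts of a model. The 211 models were short: their median span was 1642 bp, with quartiles of 1074.5 and 2299.5 bp, compared with 3396 bp (2053.5 and 5056) in the 12935 other genes at the same control level. Spans under 2000 bp made up 65.9% of the 211 and 24.0% of the others, and spans of 5000 bp or more 3.79% and 25.7%. The models also held few transcripts. A single transcript was listed for 137 of the 211 (64.9%), compared with 28.2% of the others, and more than 3 transcripts for 9 (4.27%), compared with 37.5%. These differences are descriptions of 2 sets of genes and were not tested.

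Both features went with doubling when combined. Among genes at the same control level, 3.62% of those with 1 transcript were doubled (137 of 3786), 1.55% of those with 2, 1.28% of those with 3 and 0.185% of those with 4 or more (9 of 4861). At spans of 1000 to 1499 bp, where the share was highest, it was 5.73% in genes with 1 transcript and 5.16% in genes with 2 or more. At 3000 to 4999 bp it was 0.933% and 0.280%. Beyond that range the share was lower at each longer span in both kinds of model, except for 1 of 90 genes with 1 transcript at 5000 bp or more. The number of transcripts that an assembly adds also depends on the level, and the 211 genes had a lower control level (median 3.37 FPKM) than the others (6.50 FPKM). Within each range of control means the doubled genes more often had 1 transcript, for example 70.8% compared with 33.4% of all genes at 2 to 5 FPKM and 51.6% compared with 16.1% at 10 to 20 FPKM. The 33 doubled genes with a control mean of 20 FPKM or more had a median span of 1661 bp and 1 transcript in 51.5%, and the 20 genes that met the exchanged limits had a median span of 1743 bp and 1 transcript in 45.0%. Short models with few transcripts were thus also seen outside the 211. The part of length in the estimate of FPKM itself was not tested.

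**Figure D4:**
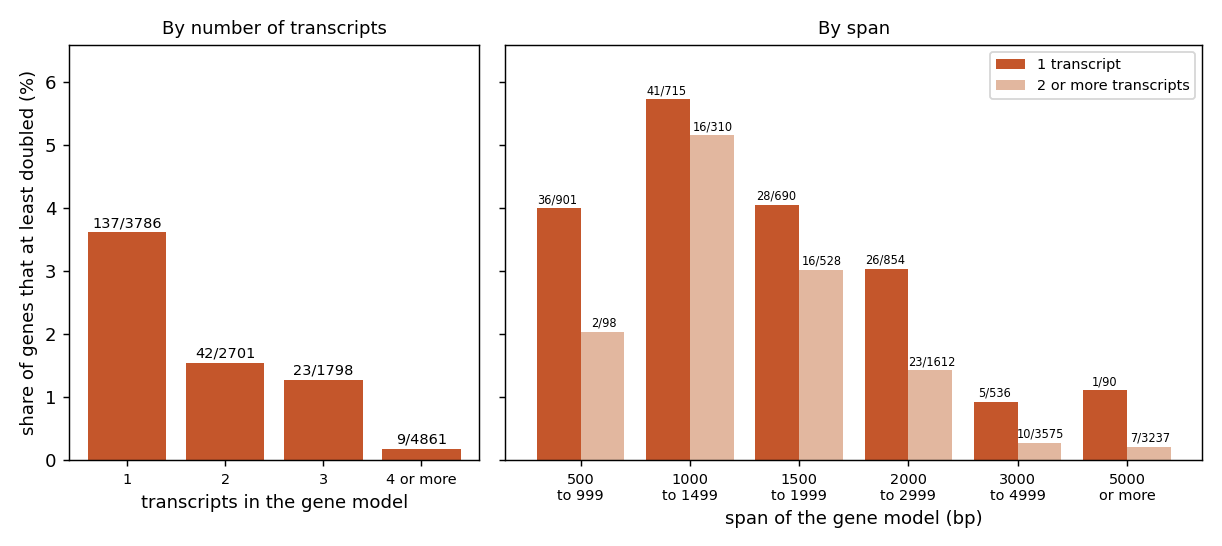
Share of annotated genes at the same control level that were at least doubled, by number of transcripts in the gene model (left) and by span in bp for models with 1 and with 2 or more transcripts (right); the numbers above the bars are doubled genes over all genes of that kind. The share is 3.62% with 1 transcript and 0.185% with 4 or more, and is highest at spans of 1000 to 1499 bp in both kinds of model.

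In 145 of the 211 genes every transcript was annotated, so the difference there lies in annotated transcripts. The other 66 held transcripts added by the assembly. Summing annotated transcripts alone, 37 of the 66 still met the ratio of 2, 6 were higher in every air-dried library by less, and in 23 the annotated sums of the groups overlapped or were lower after drying. These counts set no lower limit on the annotated level. The 37 include a gene with a lowest air-dried value of 3.16e-07 FPKM, against at most 1.73e-08 FPKM in the controls. The 6 include a gene with 3.89e-08 against 2.13e-08 FPKM. Ratios of such small values say little about a change. In these 66 genes annotated transcripts held a median of 64.1% of the level in the air-dried and 62.2% in the control samples.

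**Figure D5:**
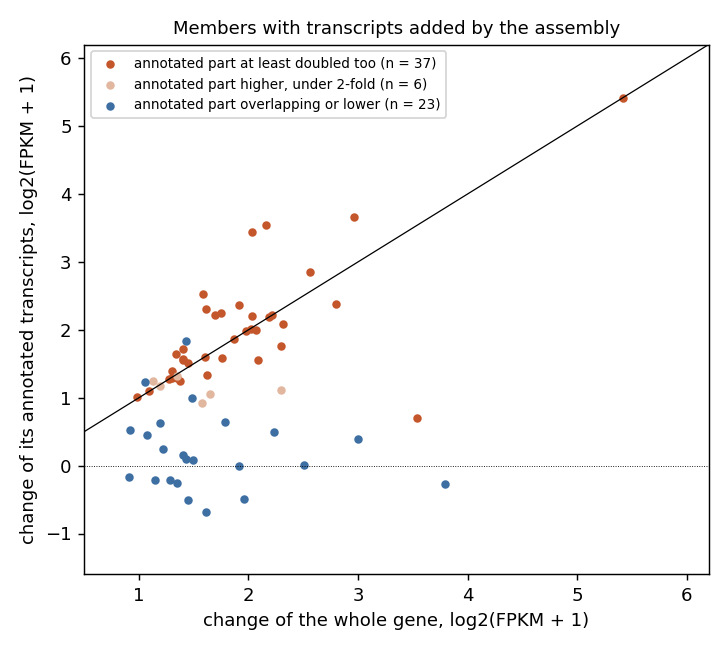
Change between air-dried and control means on the log2(FPKM + 1) scale, for annotated transcripts alone against the whole gene, in the 66 genes with added transcripts; the solid line marks equal change. In 37 genes the annotated part was at least doubled too, with no lower limit set on its level. In 23 it overlapped between the groups or was lower after drying.

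A gene of 1454 bp on chromosome 5 (minus strand, 25477547 to 25479000), chosen after its values were seen, shows the second case. Its added transcript had 40.8, 45.1 and 43.2 FPKM in the air-dried libraries, against 0.725, 0.187 and 1.49 FPKM in the controls. Its annotated transcript, nearly as long, had 0.938, 1.801 and 0.379 FPKM, against 2.24, 1.62 and 0.498 FPKM in the controls. As the values were assigned, the whole difference of this gene lay in the added transcript. The 2 transcripts share an end and cover intervals of 1454 and 1364 bp. How reads were divided between them was not tested. This gene is also 1 of 14 among the 211 (6.64%) that overlap another gene model, 13 of them with a model on the opposite strand. Of the other genes at the same control level, 1551 (12%) overlap another model. No strand-specific protocol is named in the labels, so such genes may share reads.

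The transcript with the highest mean was the same in both groups in 53 of the 74 genes with several transcripts and another one in 21. A summed FPKM can grow when the same number of fragments is assigned to a shorter transcript. In 10 of the 21 genes the leading transcript of the air-dried samples covered a shorter interval than that of the controls, in 6 a longer one and in 5 an equal one. Without both replicate 1 libraries, an alternative chosen after seeing the data, the leading transcript differed in 19 genes and was shorter in the air-dried samples in 12 of them, longer in 4 and equal in 3. In 62 of the 74 at least 1 transcript was itself at 1 FPKM or more in every air-dried library and at least 2 times its highest control value. In the other 12 no single transcript met both of these limits.

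The genes with the most transcripts show how much this varies. Of the 211, 4 had more than 4 transcripts and 5 had 4, and of these 5 the one with the largest ratio is described. One model on chromosome 13 (plus strand, 108018 to 109260) holds 5 transcripts, all annotated. It had 96.6, 47.3 and 55.3 FPKM in the air-dried libraries, against 17.3, 17.3 and 15.3 FPKM in the controls. Its transcript over the first 596 bp alone had 96.6, 46.6 and 54.8 FPKM, against 3.32, 9.60 and 8.48 FPKM in the controls. A transcript over the full interval was under 0.001 FPKM in every air-dried library, against 14.0, 7.06 and 6.59 FPKM in the controls. The short transcript led in every air-dried library and in controls 2 and 3, and the full-length one led only in control 1, 1 of the libraries that stood apart.

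The model with the most transcripts, 12 with 1 annotated, lies on chromosome 13 (plus strand, 827911 to 832454). It had 3.85, 3.82 and 3.76 FPKM in the air-dried libraries, against 1.27, 1.61 and 1.78 FPKM in the controls. The sums were even, but the annotated transcript had 0.058, 1.83 and 2.204 FPKM after drying, against 1.19, 0.00024 and 0.723 FPKM, so its level was scattered in both groups. A model with 9 transcripts on chromosome 11 (plus strand, 16023332 to 16027034) had 15.1, 15.5 and 14.9 FPKM, against 5.05, 7.01 and 7.09 FPKM. There the annotated transcript carried the difference, with 13.9, 15.5 and 14.6 FPKM after drying, against 2.73, 7.01 and 7.09 FPKM in the controls.

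The last 2 of these genes lie on chromosome 1. The model with 6 transcripts on the minus strand from 20906939 to 20912367 had 26.5, 19.99 and 16.9 FPKM in the air-dried libraries, against 3.64, 7.12 and 7.37 FPKM in the controls. Its added transcript of 448 bp had 18.2, 9.73 and 6.26 FPKM after drying, against values under 0.001 FPKM in controls 1 and 2 and 0.688 FPKM in control 3. The model with 4 transcripts on the plus strand from 4396577 to 4397558 had 16.6, 20.3 and 20.9 FPKM, against a listed 0 in control 1 and 1.29 and 0.964 FPKM in controls 2 and 3. Added transcripts were assigned 16.6, 18.4 and 20.9 FPKM of its air-dried level. The annotated transcript, which covers nearly the same interval, was assigned 1.90 FPKM in air-dried 2 and under 0.001 FPKM in air-dried 1 and 3.

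The 211 genes lay on all 19 chromosomes (207 genes) and on unplaced scaffolds (4 genes). The share of genes at the same control level that were doubled ran from 0.288% on chromosome 19 (1 of 347) to 2.74% on chromosome 13 (13 of 475), with 2.72% on chromosome 18 (13 of 478). On most chromosomes it lay between 1% and 2.32%. Both strands held them, 115 on the plus and 96 on the minus strand.

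The genes were mostly far from each other. The median distance to the nearest of the 211 on the same chromosome was 659768 bp, and 8 genes had another within 10000 bp. Only 2 pairs were neighbours in the order of annotated genes, and no run was longer; these pairs were picked after their values were seen. On chromosome 6, a gene of 996 bp on the minus strand from 8589616 to 8590611 had 24.1, 25.9 and 27.4 FPKM in the air-dried libraries, against 2.31, 3.55 and 3.51 FPKM in the controls. The next gene, 2161 bp on the plus strand from 8594059 to 8596219, had 26.0, 25.5 and 23.4 FPKM, against 4.57, 8.26 and 7.28 FPKM in the controls. The pair thus points away from each other and reached nearly the same level after drying. The gene of 2161 bp overlaps a gene model other than its partner, so its values may include shared reads.

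The other pair lies on chromosome 13, where 2 models of 43302 and 42853 bp cover almost the same interval on opposite strands. The model on the plus strand from 10469858 to 10513159 had 74.2, 101.4 and 103 FPKM in the air-dried libraries, against 9.08, 12.8 and 10.4 FPKM in the controls. The model on the minus strand from 10471259 to 10514111 had 19.7, 19.8 and 18.1 FPKM, against 6.14, 5.91 and 7.89 FPKM in the controls. Annotated transcripts held only 0.329% of the air-dried and 5.43e-05% of the control level of the plus-strand model. In the minus-strand model they held 5.33% and 12.3%. The rest of both levels was assigned to added transcripts. Because the models overlap, their values may share reads. Of the 413 annotated genes next to one of the 211, 239 were tested and 19 of these were called higher (7.95%), compared with 892 of the 18753 tested annotated genes outside the 211 (4.76%). The median change of the tested neighbours was 0.07 on the log2(FPKM + 1) scale, compared with 0.03 in those 18753 genes, which include the neighbours. These shares were not tested against each other.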

How the data were processed

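Poly(A)-selected leaf RNA of 3 air-dried and 3 control samples was sequenced from both fragment ends (100 bp each), per the labels' protocols. The authors deposited FPKM for each of 112919 transcripts (45773 annotated, 67146 added by the assembly), 1 table a library, per the file headers. The submitters' processing notes name FastQC, TopHat and Cufflinks and give no versions. Read counts are not given, so the depth is unknown and no counting interval can be set. No 2 libraries were identical (0 of 15 pairs). FPKM was summed over the transcripts of a gene, which adds values scaled to different lengths. Genes averaging 1 FPKM or more were fitted on log2(FPKM + 1) by limma (version 3.58.1, R 4.3.3), with a variance trend and Benjamini-Hochberg adjustment over all tested genes. The fit was tested on simulated data. Its p-values reflect the spread of these samples, which may be technical replicates.

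The 211 genes and all limits were chosen with earlier results of these data known. Genes described in full are the 10 with the largest ratio, the 5 with the highest air-dried mean, those nearest the limits, the 5 with the most transcripts (ties by the larger ratio) and the 3 whose replicate 1 values depart most; others are marked as chosen after their values were seen. At most 2 identifiers are printed, because the tables do not pair them with names. Gene lists and tissue markers that need names could not be tested. Alternatives were other libraries, scalings, pseudocounts, filters, transcript sets, spans and a replicate block.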

Additional observations from a re-analysis of the deposited data

How the results depend on the processing

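The count of 211 genes stayed within 1.5 times in 11 of 12 alternatives; without any lower limit on the control value it was 447, with a median log2 ratio of group means of 2.60, in place of 2.04, and 74.3% of genes with 1 transcript, in place of 64.9%. Leaving out 1 library gave 233 to 258 genes, a median log2 ratio of 1.82 to 2.01 and 61.4% to 64.9% with 1 transcript. The median log2 ratio was 1.72 without both replicate 1 libraries and 2.19 with annotated transcripts only, where 212 genes qualified, 175 of them among the 211. Median-of-ratios scaling (factors of 0.978 to 1.02) left 200, all among the 211, and gave a median change over tested genes of -0.0048 in place of 0.03 (log2).

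Of the genes called higher in the fit across all genes, 1231 with all libraries, 367 to 1372 were called when 1 library was left out (379 without air-dried 2, 367 without air-dried 3, 554 without control 2 and 507 without control 3). Of the 211, 133 to 204 were then called, the lowest without air-dried 3. Without both replicate 1 libraries, 1824 genes and 202 of the 211 were called. Annotated transcripts only gave 814 of 17139 tested genes. A replicate block gave 492 genes and 145 of the 211; libraries 1, 2 and 3 of one group, centred on the group mean, correlated with those of the same number in the other at r = 0.02, 0.04 and 0.01 over the tested genes, so the numbers were not taken to pair the samples. The 22 genes of the naming rule kept a positive change in all 328 refits, with the same call in 294, a lost call in 26 and a gained one in 8. The choice of the genes fixes that sign in every refit that sums all transcripts, so nothing is read from it. Of the 211, 123 were called in every fit that tested them. Depth is unknown, so how few fragments stand behind control values near 1 FPKM could not be measured.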
